A study of Mus musculus with 9 samples.

Results

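The levels of 10 marker genes of liver macrophages, of 54532 genes with deposited values, were compared between the livers of control mice (NC group), mice 6 h after an overdose of acetaminophen (APAP group) and mice given adipose-derived mesenchymal stem cells after the same overdose (AMSC group). The genes were chosen by name, 4 as markers of resident Kupffer cells (Clec4f, Cd5l, Vsig4 and Marco) and 6 as markers of macrophages in general (C1qa, C1qb, C1qc, Csf1r, Adgre1 and Lyz2). Each group held 3 male C57BL/6 mice of 5 to 7 weeks of age, with 1 RNA-seq library per liver. After an overnight fast, both treated groups were injected with APAP at 500 mg/kg into the peritoneum, and the AMSC group was also given 200000 AMSCs through the tail vein immediately afterwards. The AMSCs were grown from inguinal fat of C57BL/6 mice, so RNA of the injected cells cannot be told apart from RNA of the host. NC mice are labelled only as control. The methods state that all animals were fasted before APAP, which leaves unclear whether NC mice were fasted, and an injection of NC mice is not given in the sources used here. The title of NC replicate 3 carries a different date from the titles of the remaining 8 libraries. The values are FPKM, reads scaled by gene length and by a factor per library, from which the whole reads on each gene could be recovered. This factor was not depth alone. It was 1.08 to 1.16 times the reads on genes in NC libraries, 0.909 to 0.949 times in APAP libraries and 0.969 to 0.985 times in AMSC libraries. Median-of-ratios scaling of the FPKM left all libraries equal, so the deposited values already carried a scaling of this kind. The libraries held 13418921 to 16210930 reads on genes.

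Kupffer cells are the macrophages that live in the liver sinusoids, where they clear bacteria, complement-coated particles and aged red blood cells from portal blood. They are seeded before birth, renew themselves locally and depend on signalling through the receptor Csf1r, while macrophages derived from blood monocytes can enter the liver after injury. In mice the lectin Clec4f is made nearly exclusively by Kupffer cells, whereas C1q, F4/80 (encoded by Adgre1) and lysozyme are shared by many macrophages. In a bulk library, a change in the number of macrophages and a change in the RNA per macrophage cannot be told apart.

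All 10 genes passed the filter on low values (mean FPKM of 1 or more) and were tested. On the deposited coordinates (GRCm38), C1qb, C1qc and C1qa lay side by side on the minus strand of chromosome 4 within 18675 bases (136880129 to 136898803), with gaps of 3616 and 2851 bases and no other gene in the span. The other markers were spread over other chromosomes. Clec4f (ENSMUSG00000014542) lay on chromosome 6 (83644542 to 83656187), Cd5l on chromosome 3 (87357881 to 87371073) and Vsig4 on chromosome X (96247203 to 96293438). Marco lay on chromosome 1 (120474538 to 120505024), Adgre1 on chromosome 17 (57358691 to 57483527) and Lyz2 on chromosome 10 (117277331 to 117282321). Lyz2 has the paralog Lyz1, which was at 0 to 0.177 FPKM, and the authors' counting could have split reads between them.

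As the markers moved together across libraries, the promoters of 7 of the 10 genes that RefSeq (GRCm38.p6) provides here were searched for the letters GAGGAA, a core of binding sites of the macrophage factor PU.1, on both strands (TTCCTC). They occurred in the 250 bases before the start of 5 of the 7 genes (Cd5l, Vsig4, Marco, C1qb and C1qc), against 23.3% of all 32851 promoters. The letters TGANTCA of AP-1 sites occurred in 0 of the 7, against 6.75% of all promoters. A match of letters describes the window and shows no binding. The 160 bases before the start are given for 4 of the genes with the core, from 5′ to 3′ on the strand of the gene. The PU.1 core is in capitals, and these windows lie outside the gene models of both annotations. They are chr3:87357721-87357880 (plus strand) for Cd5l, chrX:96293439-96293598 for Vsig4, chr1:120505025-120505184 for Marco and chr4:136886201-136886360 for C1qb (minus strand for these 3).
Cd5l: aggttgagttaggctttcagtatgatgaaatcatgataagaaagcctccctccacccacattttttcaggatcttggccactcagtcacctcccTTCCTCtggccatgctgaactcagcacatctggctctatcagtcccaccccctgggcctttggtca
Vsig4: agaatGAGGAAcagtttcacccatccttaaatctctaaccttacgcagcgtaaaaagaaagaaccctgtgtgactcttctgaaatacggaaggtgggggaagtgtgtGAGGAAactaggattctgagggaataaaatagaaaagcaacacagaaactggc
Marco: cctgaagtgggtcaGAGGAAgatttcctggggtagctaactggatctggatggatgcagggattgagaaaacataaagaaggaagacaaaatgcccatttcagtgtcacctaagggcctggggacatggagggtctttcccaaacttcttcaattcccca
C1qb: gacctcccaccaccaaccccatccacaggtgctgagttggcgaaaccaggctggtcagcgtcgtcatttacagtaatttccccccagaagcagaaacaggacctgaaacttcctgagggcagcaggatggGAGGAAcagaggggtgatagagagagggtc
The core began 66 bases before the start in Cd5l, 155 and 53 bases before it in Vsig4, 146 in Marco, 30 in C1qb and 193 in C1qc.

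To see whether macrophage transcripts changed after the overdose, the APAP group was first compared with the NC group. All 10 markers had higher mean levels in the APAP group (49.7% of all genes tested did), with log2 fold changes of 0.64 (Clec4f) to 1.22 (Marco) on the scale of log2(FPKM + 1) and a median of 0.88, against a median of -0.0043 over all 9699 genes tested. None of the 10 passed an adjusted p of 0.05 in limma with Benjamini-Hochberg adjustment over all genes, where 12.8% of all genes passed with higher values. The adjusted p lay between 0.0689 (C1qc) and 0.295 (Lyz2), 5 of the 10 had an unadjusted p under 0.05 (19.3% of all genes, with higher values), and voom on the recovered reads called 0. For no marker were all APAP libraries above all NC libraries, which was the case for 20.9% of all genes tested. With the replicate number as a block, 7 of the 10 were higher at an adjusted p of at most 0.05 (limma, between 0.00979 for C1qc and 0.0385 for Vsig4), against 15.9% of all genes, and Clec4f, Marco and Csf1r were not. No label pairs these mice, and the block was kept because same-numbered libraries deviated together in these same data. Without APAP replicate 2, 5 of the 10 passed (Cd5l, Vsig4, C1qb, C1qc and Adgre1, against 8.94% of all genes). Without NC replicate 3, 2 passed (C1qb and C1qc, against 10.5%). These were the lowest APAP and the highest NC library for all 10 markers, so leaving out either widens the difference. With any other replicate left out, none of the 10 passed.

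The effect of the cells was addressed by comparing the AMSC group with the APAP group. All 10 markers had lower mean levels in the AMSC group (48.0% of all genes tested did), with log2 fold changes of -0.87 (C1qa) to -1.60 (Adgre1) and a median of -1.24, against 0.013 over all genes tested. None passed the adjusted p (limma, 0.0561 for Csf1r to 0.490 for Marco), where 2.14% of all genes passed with lower values. At an unadjusted p under 0.05 there were 9 of the 10, all but Marco (10.3% of all genes, with lower values). Voom on the recovered reads called 1, Csf1r (log2 fold change -1.54, adjusted p = 0.0381), where 255 of all 9699 genes passed with lower values. For 5 markers (Cd5l, C1qc, Csf1r, Adgre1 and Lyz2) every AMSC library was below every APAP library, as for 12.4% of all genes tested. Without APAP replicate 2, 8 of the 10 passed (all but Marco and C1qa, with adjusted p from 0.00699 for Adgre1 to 0.0457 for C1qc, limma), against 1.9% of all genes tested. This was the lowest APAP library for all 10 markers, so leaving it out widens the difference. With any other replicate left out, none of the 10 passed.

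**Figure D1:**
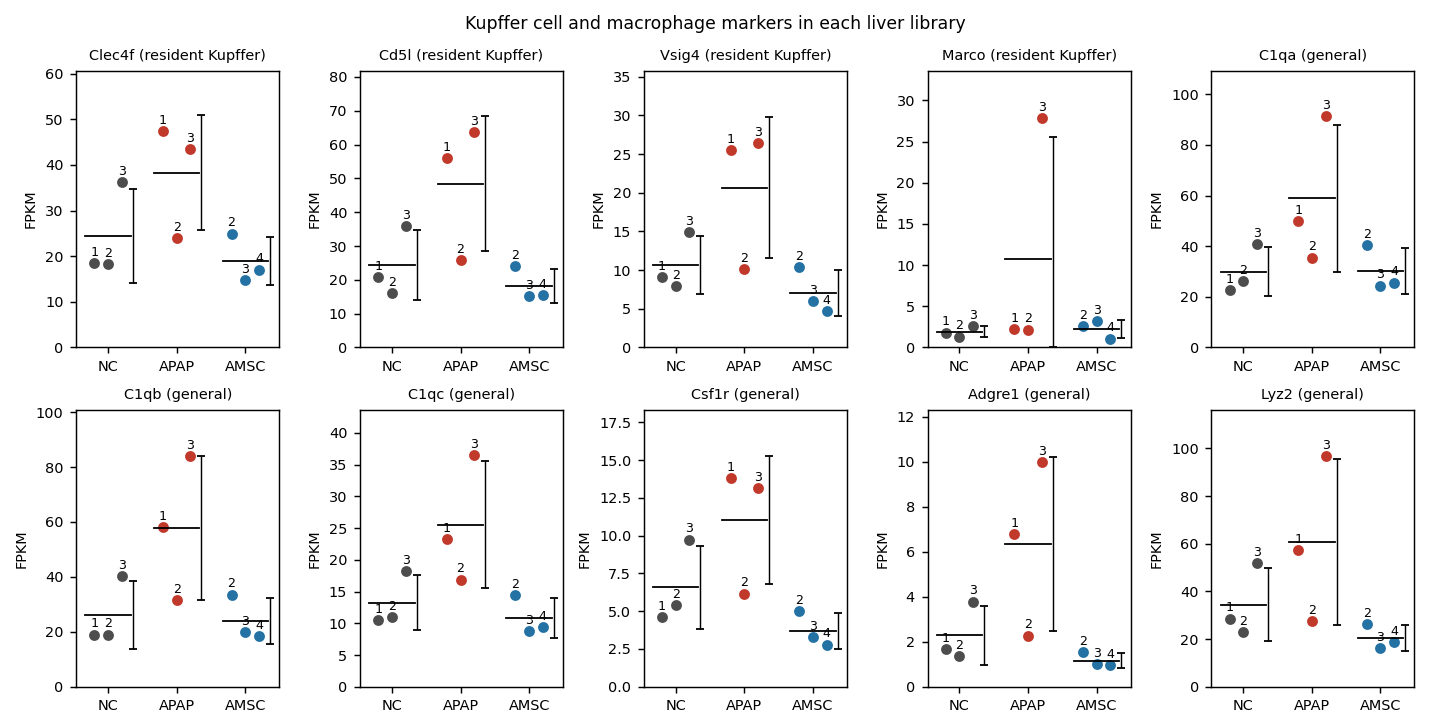
FPKM (y axes, from 0) of the 10 markers in each of the 9 liver libraries, with the replicate number at each point, the group mean as a line and the SD (n = 3) as a bar that is drawn no lower than 0. NC replicate 3 is the highest NC library and APAP replicate 2 the lowest APAP library in all 10 panels, and Marco stands out only in APAP replicate 3, at 27.8 FPKM.

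Compared with the NC group, 8 of the 10 markers had lower and 2 had higher mean levels in the AMSC group (48.3% of all genes were lower), with log2 fold changes of -0.67 (Lyz2) to 0.12 (Marco) and a median of -0.33, against 0.016 over all genes tested. None passed the adjusted p (limma, 0.102 for Csf1r to 0.958 for C1qa), where 11.9% of all genes passed with lower values. The groups overlapped for all 10, while 20.3% of all genes were lower with no overlap, and 1 marker (Csf1r) had an unadjusted p under 0.05, as had 17.8% of all genes with lower values. Voom called 0. When the values of each library were rescaled to the same sum (TPM), Csf1r (log2 fold change -0.93, adjusted p = 0.0348) and Lyz2 (-0.90, adjusted p = 0.0384) passed in limma. With this rescaling 2159 of all 9699 genes passed with lower values, so 2 of 10 markers do not stand out. This rescaling moved the median of all genes by itself, to -0.29 in APAP against NC, 0.10 in AMSC against APAP and -0.18 in AMSC against NC. Relative to these medians the markers stayed higher in the APAP group than in the NC group.

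**Figure D2:**
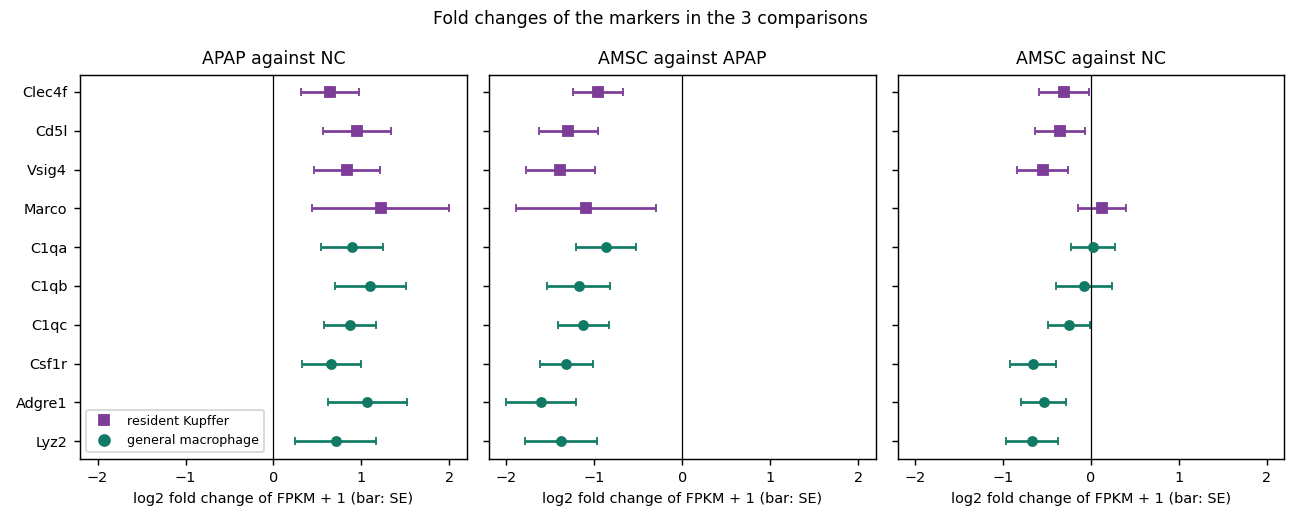
Log2 fold change of FPKM + 1 (x axis) of each marker in the 3 comparisons, with the standard error from limma as a bar and squares for resident Kupffer cell markers. All 10 points lie right of 0 for APAP against NC and left of 0 for AMSC against APAP, and in AMSC against NC they lie between -0.67 and 0.12.

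Among the resident markers, Clec4f, the lectin that defines Kupffer cells in mice, had 18.6, 18.3 and 36.3 FPKM in NC replicates 1, 2 and 3, 47.5, 24.0 and 43.5 FPKM in APAP replicates 1, 2 and 3, and 24.97, 14.8 and 17.0 FPKM in AMSC replicates 2, 3 and 4. NC replicate 3 was above APAP replicate 2, so the groups overlapped, and only APAP replicates 1 and 3 were above every NC library. The log2 fold change of Clec4f was 0.64 (SE 0.33, adjusted p = 0.189 from limma) in APAP against NC and -0.96 (SE 0.29, adjusted p = 0.118) in AMSC against APAP. Between the AMSC and NC groups it was -0.31 (SE 0.28), and without NC replicate 3 it was 0.0030.

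Cd5l, a secreted scavenger receptor protein that keeps macrophages from dying, had 20.8, 16.1 and 35.9 FPKM in the NC group, 55.9, 25.8 and 63.6 FPKM in the APAP group and 24.0, 15.1 and 15.6 FPKM in the AMSC group, in the order of replicate numbers. All AMSC libraries were below all APAP libraries (log2 fold change -1.30, SE 0.34, adjusted p = 0.0829 from limma), whereas NC replicate 3 reached into the range of the APAP group (0.95, SE 0.39, adjusted p = 0.111). Vsig4, the complement receptor with which Kupffer cells capture bacteria coated with C3 fragments, had 9.05, 7.91 and 14.9 FPKM in the NC group, 25.5, 10.1 and 26.4 FPKM in the APAP group and 10.4, 5.96 and 4.71 FPKM in the AMSC group. AMSC replicate 2 was just above APAP replicate 2, so these groups overlapped for Vsig4 (log2 fold change -1.39, SE 0.39, adjusted p = 0.0998).

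Marco, a scavenger receptor with a collagen-like stalk that binds bacteria and particles, did not share this pattern. It had 1.81, 1.32 and 2.63 FPKM in the NC group, 2.25, 2.18 and 27.8 FPKM in the APAP group and 2.55, 3.16 and 1.07 FPKM in the AMSC group. APAP replicate 3 held 720 reads on Marco, against 31 to 87 reads in the other 8 libraries, and its level was 12.6 times the mean of the other APAP libraries. The higher mean of the APAP group thus rested on this library, and without it the log2 fold change fell from 1.22 (SE 0.78, adjusted p = 0.287 from limma) to 0.16 in APAP against NC and changed from -1.09 (SE 0.80, adjusted p = 0.490) to -0.039 in AMSC against APAP. Spic, a transcription factor of macrophages that take up red blood cells, was also highest in APAP replicate 3, at 1.94 FPKM against 0.147 to 0.469 FPKM in the other libraries.

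The general markers C1qa, C1qb and C1qc encode the chains of C1q, which starts the classical complement pathway when it binds antibodies or dying cells. C1qa had 22.7, 26.1 and 40.8 FPKM in the NC group, 49.9, 35.5 and 91.5 FPKM in the APAP group and 40.4, 24.4 and 25.7 FPKM in the AMSC group. C1qb ranged from 18.9 to 40.3 FPKM in the NC group, from 31.5 to 84.0 FPKM in the APAP group and from 18.5 to 33.6 FPKM in the AMSC group. For both genes the groups overlapped in every comparison. C1qc, with the lowest level of the 3 chains, ranged from 10.5 to 18.2 FPKM in the NC group, from 16.9 to 36.5 FPKM in the APAP group and from 8.80 to 14.4 FPKM in the AMSC group, and was lower in every AMSC library than in every APAP library (log2 fold change -1.13, SE 0.29, adjusted p = 0.0787 from limma). The log2 fold changes of C1qa and C1qb were 0.89 (SE 0.35) and 1.10 (SE 0.40) in APAP against NC and -0.87 (SE 0.34) and -1.18 (SE 0.36) in AMSC against APAP. The level of C1qa was 2.26 ± 0.105 times that of C1qc in the NC group, 2.25 ± 0.223 times in the APAP group and 2.77 ± 0.0260 times in the AMSC group (SD, n = 3), and every AMSC library had a higher ratio than every other library. Against C1qb it was 1.19 ± 0.179, 1.02 ± 0.144 and 1.27 ± 0.101 times. There the AMSC libraries lay above all APAP libraries but overlapped the NC libraries. These ratios were not tested, and the share of other gene pairs with such a difference was not computed.

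Csf1r lies on chromosome 18 (61105572 to 61132149) and overlaps Hmgxb3 on the other strand, which had 1.54 to 4.06 FPKM. Whether the counting used strand is not given in the sources used here, so reads of both genes may be mixed. Csf1r, the receptor for the growth factors Csf1 and Il34 on which Kupffer cells depend, had 4.59, 5.40 and 9.73 FPKM in the NC group, 13.8, 6.16 and 13.2 FPKM in the APAP group and 5.001, 3.26 and 2.79 FPKM in the AMSC group. Every AMSC library was below every APAP library, and its log2 fold change of -1.32 (SE 0.30) had the lowest adjusted p of the 10 markers in this comparison, 0.0561 from limma. Adgre1, which encodes the adhesion receptor F4/80, had 1.68, 1.38 and 3.79 FPKM in the NC group, 6.77, 2.27 and 9.996 FPKM in the APAP group and 1.54, 0.998 and 0.966 FPKM in the AMSC group. The AMSC libraries again lay below all APAP libraries (log2 fold change -1.60, SE 0.40, adjusted p = 0.0740). Adgre1 had 42 to 79 reads per AMSC library, and only Marco had fewer in any of them (31 to 79). With a pseudocount of 0.1 the log2 fold change of Adgre1 was -2.14, since the pseudocount of 1 holds down the changes of low genes.

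Lyz2, the lysozyme of macrophages and neutrophils, had 28.6, 23.0 and 52.0 FPKM in the NC group, 57.3, 27.5 and 96.9 FPKM in the APAP group and 26.4, 16.1 and 18.8 FPKM in the AMSC group. The highest AMSC library was just below the lowest APAP library, and the log2 fold change was -1.38 (SE 0.41, adjusted p = 0.117 from limma). In APAP against NC it was 0.71 (SE 0.46, adjusted p = 0.295), as NC replicate 3 was above APAP replicate 2.

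Resident and general markers had similar medians in each comparison. The median log2 fold change was 0.89 for the 4 resident and 0.88 for the 6 general markers in APAP against NC, -1.20 and -1.25 in AMSC against APAP, and -0.33 and -0.40 in AMSC against NC. Within a library, the mean log2 FPKM of the resident markers minus that of the general markers was -0.32 ± 0.133 for NC, -0.28 ± 0.205 for APAP and -0.16 ± 0.206 for AMSC libraries (SD, n = 3). Without Marco this difference was 0.49 ± 0.095, 0.37 ± 0.258 and 0.50 ± 0.0410, and the groups overlapped both with and without Marco.

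The spread between libraries of a group was shared by the markers. In all 10 genes NC replicate 3 was the highest NC library and APAP replicate 2 the lowest APAP library, and in 9 (all but Marco) AMSC replicate 2 was the highest AMSC library. These orders were noticed after the values were seen. They held together for 9 of the 10 markers and for 6.72% of all genes tested, and separately for 38.1%, 27.5% and 29.6% of all genes. The highest library of a group had 1.73 to 2.75 times the lowest in the NC group, and 1.98 to 4.41 times in the APAP group once Marco (12.8 times) is set aside. In the AMSC group the range was 1.59 to 2.95 times. On average, the markers of APAP replicate 2 were 0.78 below the group mean on the log2 scale, and those of NC replicate 3 were 0.56 above theirs.

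Genes of some other cell types showed these orders too. The 4 hemoglobin genes and Alas2 of the erythrocyte list were on average 1.11 below the group mean in APAP replicate 2 and 0.55 above it in NC replicate 3, and 4 of these 5 genes showed all 3 orders. Of 9 stellate cell and fibroblast genes 7 did, and of 8 genes of sinusoidal endothelium 4. Of 3 cholangiocyte genes, 6 hepatocyte genes and the 1 B cell gene tested, 0 did. Hba-a1 had 44.2 to 77.1 FPKM in NC libraries, 111 to 525 FPKM in APAP libraries and 60.9 to 108 FPKM in AMSC libraries. The endothelial genes summed to 25.6 to 58.3 FPKM in NC libraries, 25.6 to 75.5 in APAP libraries and 25.3 to 27.1 in AMSC libraries, with 0 of the 8 genes past the adjusted p in APAP against NC or AMSC against APAP (limma). In AMSC against NC 6 of the 8 were lower (median -0.51), against 48.3% of all genes. Gpr182 passed there (-0.74, adjusted p = 0.0350), against 11.9% of all genes. Its call was lost without NC replicate 2 (0.0626), AMSC replicate 2 (0.105) or AMSC replicate 4 (0.0970). The mean deviation of the 6 hepatocyte genes was at most 0.080 in size in any library. The part of blood content in the marker levels was not tested.

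**Figure D3:**
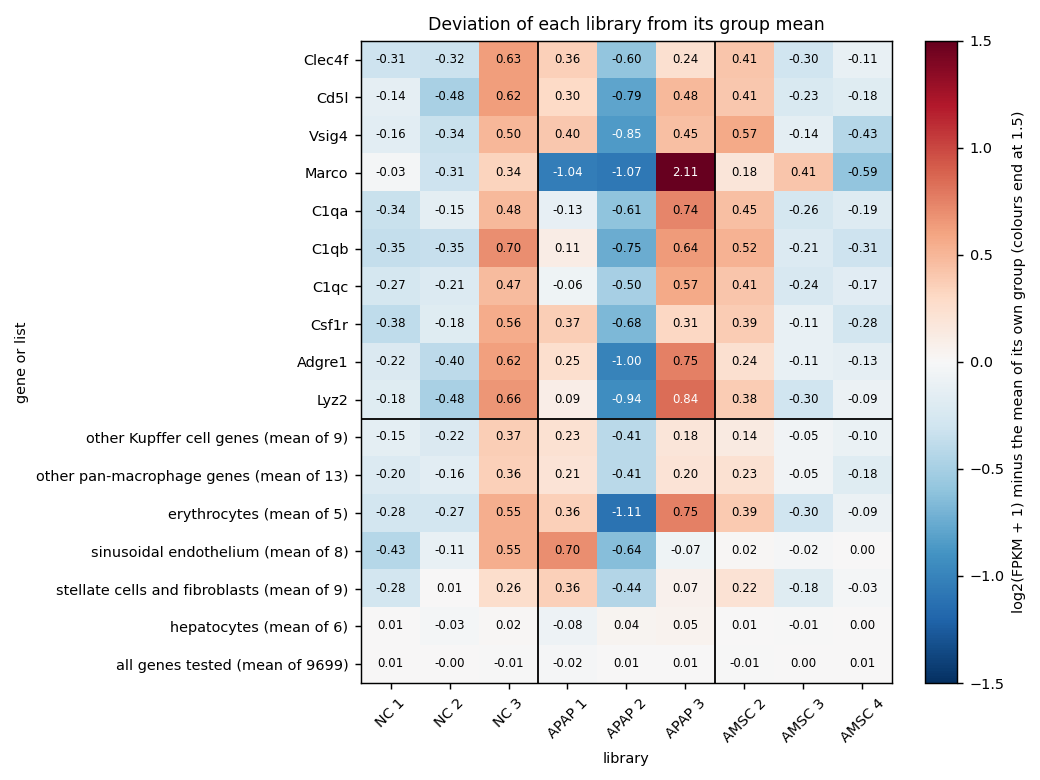
Deviation of log2(FPKM + 1) from the mean of the library's own group for the 10 markers and, under the line, the mean deviation of other gene lists (columns are the 9 libraries). APAP replicate 2 is low and NC replicate 3 high in all 10 markers and in the erythrocyte list, while the means of the 6 hepatocyte genes and of all 9699 genes stay within 0.080 of 0. Colours end at 1.5, and Marco in APAP replicate 3 lies beyond.

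As the libraries differed in a manner shared by the markers, each marker was also set against Clec4f in the same library, a choice made after the values were seen and given with no test. The log2 ratio of Csf1r to Clec4f was -1.89 ± 0.125 for NC, -1.82 ± 0.123 for APAP and -2.37 ± 0.219 for AMSC libraries (SD, n = 3). For Adgre1 it was -3.49 ± 0.239, -2.78 ± 0.641 and -4.02 ± 0.126, and for Lyz2 0.49 ± 0.151, 0.54 ± 0.532 and 0.11 ± 0.0310. In these 3 genes every AMSC library lay below every NC library and every APAP library. Ratios to Clec4f that were lower in all AMSC libraries were found for 3 of the 9 other markers against the NC group (1.65% of 9611 genes with values above 0 in all libraries) and for 5 of 9 against the APAP group (0.593%), where Cd5l and Vsig4 were the other genes. The ratio of C1qa to Clec4f went the other way, from 0.32 ± 0.171 in the NC group to 0.67 ± 0.0700 in the AMSC group, with every AMSC library above every NC library (16.2% of all genes). In the APAP group against the NC group only the ratio of C1qb did not overlap, being higher in all APAP libraries (0.08 ± 0.064 against 0.54 ± 0.354), as for 3.29% of all genes. Clec4f itself had its highest mean in the APAP group and its lowest in the AMSC group, which moves the ratio of a gene with no change. On the levels themselves 20.3% of all genes were lower against the NC group and 12.4% against the APAP group. The small shares for ratios thus cannot show that the markers stand out.

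**Figure D4:**
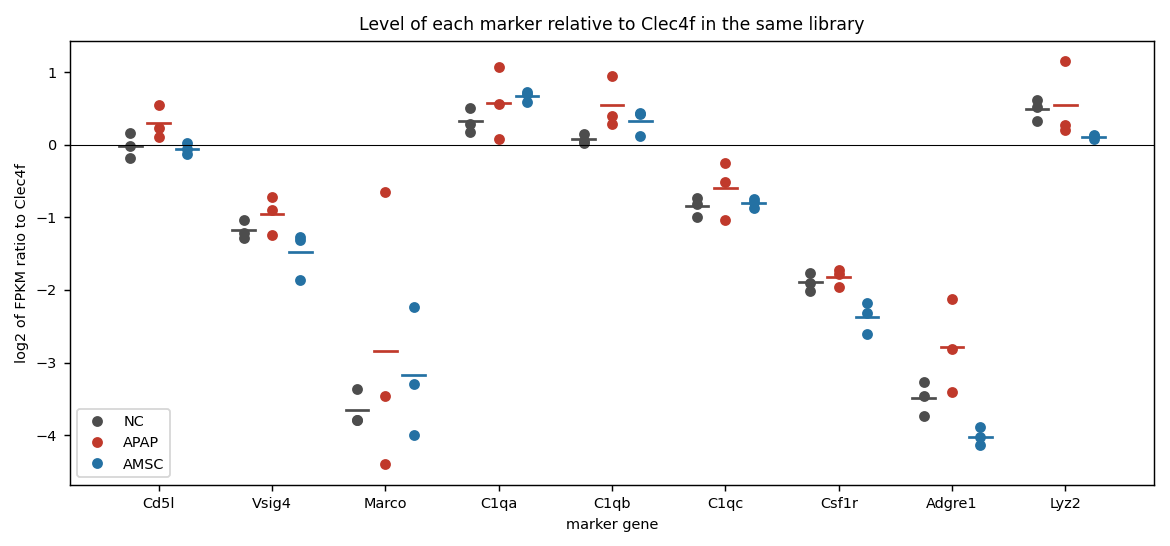
Log2 of the FPKM of each marker over that of Clec4f in the same library (y axis) in NC, APAP and AMSC libraries, with a point per library and a line at the group mean. For Csf1r, Adgre1 and Lyz2 the 3 AMSC points lie below all other points, and Marco ranges most widely, from -4.40 to -0.65.

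Genes with a pattern most like Clec4f over the 9 libraries, by Pearson's r of log2(FPKM + 1), were Ndufab1-ps (0.988), Fcna (0.981), Gltp (0.970), Pld4 (0.970) and Il18bp (0.969). Fcna, which encodes the secreted lectin ficolin A, had 13.8 to 31.4 FPKM in NC libraries, 19.5 to 41.5 FPKM in APAP libraries and 11.6 to 20.5 FPKM in AMSC libraries. Ndufab1-ps is a pseudogene whose reads may come from its parent gene, so its value is uncertain. Among the markers themselves, r with Clec4f ranged from 0.880 (C1qa) to 0.976 (Cd5l), with Marco at 0.540. Most like the mean of the C1q genes were Fcer1g (0.988), Wfdc17 (0.987), Tmsb4x (0.970), Lats2 (0.968) and Cyba (0.968). Fcer1g is the signalling chain of Fc receptors and Cyba a subunit of the phagocyte oxidase. These are descriptions over libraries that share the 3 groups and the order of libraries described above.

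Further macrophage genes were read from lists. Of 17 other pan-macrophage genes, 13 were tested, all 13 had higher mean levels in the APAP group than in the NC group (49.7% of all genes did, median log2 fold change 0.81), and 5 of them rose at an adjusted p of at most 0.05 in limma, against 12.8% of all genes. Aif1 and Cybb, not among the 5, passed the filter on low values only through their APAP libraries. Cd68, a lysosomal glycoprotein of phagocytes, rose from 2.10 to 4.53 FPKM in the NC libraries to 9.19 to 10.8 FPKM in the APAP libraries (log2 fold change 1.38, SE 0.21, adjusted p = 0.00337 from limma), and Laptm5, a lysosomal membrane protein of blood cells, rose by 1.16 (SE 0.20, adjusted p = 0.00571). Neither call was lost under any alternative. Tyrobp, a signalling adaptor of myeloid receptors, rose by 1.09 (adjusted p = 0.0277), but not without NC replicate 1 (0.0808), NC replicate 2 (0.101), APAP replicate 1 (0.0583) or APAP replicate 3 (0.0688). For Cd68, unlike the 10 markers, APAP replicate 2 (9.31 FPKM) was not the lowest APAP library. All 13 genes had lower mean levels in the AMSC group than in the APAP group (48.0% of all genes did, median -0.97), and 2 fell, Cd68 (-1.24, adjusted p = 0.0267) and Laptm5 (-0.98, adjusted p = 0.0373), against 2.14% of all genes. The call of Cd68 was lost without APAP replicate 3 (0.0852), AMSC replicate 2 (0.0805) or AMSC replicate 4 (0.0567), and that of Laptm5 without any of these, APAP replicate 1 or AMSC replicate 3 (up to 0.136 among libraries left out). In AMSC against NC 0 of the 13 passed.

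Of 11 other Kupffer cell genes, 9 were tested, and their median log2 fold change was 0.65 in APAP against NC, -0.53 in AMSC against APAP and -0.13 in AMSC against NC. In APAP against NC 2 rose and 1 fell, where 1243 of all 9699 genes rose and 1271 fell. Timd4, a receptor for dying cells on resident macrophages, had 0.910 to 2.35 FPKM in NC libraries, 2.08 to 5.44 FPKM in APAP libraries and 1.07 to 1.56 FPKM in AMSC libraries. In APAP against NC it rose (log2 fold change 1.02, SE 0.32, adjusted p = 0.0497 from limma), but without NC replicate 1 or 2 or APAP replicate 1 or 3 the adjusted p was 0.151, 0.143, 0.108 and 0.135. The call of Timd4 was also lost with all genes above 0 (0.196), quantile normalization (0.0601), TPM (0.0737) and no trend (0.0502). Slc11a1, a metal transporter of phagosomes, rose by 0.82 (adjusted p = 0.0235), and the iron exporter gene Slc40a1, which hepatocytes also express, fell by 0.71 (adjusted p = 0.0446). The call of Slc11a1 was lost in 5 and that of Slc40a1 in 7 alternatives, among them without NC replicate 1 (0.0677 and 0.114), NC replicate 2 (0.0872 and 0.0632) or APAP replicate 3 (0.0682 and 0.0682), for Slc11a1 without APAP replicate 1 (0.0531), and for Slc40a1 without NC replicate 3 (0.122) or APAP replicate 2 (0.105). None of the 9 passed in AMSC against APAP. In AMSC against NC, 1 passed, C6, a complement component that hepatocytes also make, which fell by 0.66 (adjusted p = 0.00573 from limma). There 11.9% of all genes passed with lower values, and the call of C6 was lost with the replicate block (0.152).

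Csf1 and Il34, the ligands of Csf1r, had lower mean levels in the APAP group than in the NC group. The mean of Csf1r was higher there, but Csf1r did not pass the adjusted p. Csf1 had 2.10 to 2.39 FPKM in NC libraries and 0.988 to 1.63 FPKM in APAP libraries, and fell (log2 fold change -0.54, SE 0.14, adjusted p = 0.0266 from limma). This call was lost without any of the NC replicates or without APAP replicate 1 or 2, with adjusted p between 0.0533 and 0.0932. In the AMSC group it had 1.31 to 1.94 FPKM. Il34 had 0.945 to 1.01 FPKM in NC libraries, 0.494 to 0.951 FPKM in APAP libraries and 1.18 to 1.66 FPKM in AMSC libraries. Its log2 fold change was -0.24 in APAP against NC (adjusted p = 0.251 from limma) and 0.56 in AMSC against APAP (adjusted p = 0.0910). Il34 had 12 to 49 reads per library and passed the filter on low values only through its AMSC libraries. Csf2rb, the shared receptor chain for GM-CSF and IL-3, rose in APAP against NC (log2 fold change 0.80, SE 0.15, adjusted p = 0.00845), which held under every alternative. It passed the filter on low values only through its APAP libraries. Of 7 genes of the classical complement pathway other than those of C1q, 2 rose in APAP against NC, against 12.8% of all genes (median of the 7 log2 fold changes 0.38). They were C4b (0.70, adjusted p = 0.0118) and C2 (0.54, adjusted p = 0.0324), whose products are cleaved once C1q has bound. The call of C4b was lost without NC replicate 2 (0.0514), with quantile normalization (0.105) and for TPM (0.0826). That of C2 was lost without NC replicate 1 (0.128), NC replicate 2 (0.122), APAP replicate 2 (0.103) or APAP replicate 3 (0.0579), and for TPM (0.188). The proteases that C1q activates, C1ra and C1s1, had log2 fold changes of 0.26 and 0.16 in APAP against NC (adjusted p = 0.137 and 0.449) and -0.29 and -0.28 in AMSC against APAP (adjusted p = 0.238 and 0.298).

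Of 10 transcription regulators of macrophages, 7 were tested, and 3 rose and 1 fell in APAP against NC. Of all 9699 genes, 1243 rose and 1271 fell there. Irf8, which directs monocytes and macrophages, had 0.552 to 0.799 FPKM in NC libraries and 1.92 to 2.98 FPKM in APAP libraries and rose (log2 fold change 1.06, SE 0.15, adjusted p = 0.00275 from limma) under every alternative. It passed the filter on low values only through its APAP libraries. Nr1h3 (LXR alpha), a factor of Kupffer cell identity that hepatocytes also express, fell by 0.66 in APAP against NC (adjusted p = 0.0149) and by 0.66 in AMSC against NC (adjusted p = 0.00202). The first of these calls was lost without NC replicate 1 (0.0526) or 2 (0.0608) and with all genes above 0 (0.0509). The second was lost with the replicate block (0.101). Id1 (0.80, adjusted p = 0.0216) and Id3 (0.83, adjusted p = 0.0402), inhibitors of helix-loop-helix factors that many liver cells express, also rose in APAP against NC. Leaving out any NC replicate ended both calls (0.0528 to 0.113), and that of Id3 was also lost without APAP replicate 2 (0.126) or 3 (0.108). In AMSC against NC both rose as well, Id1 by 1.29 (adjusted p = 0.0252 from limma) and Id3 by 0.81 (adjusted p = 0.0202). There the call of Id1 was lost without any NC replicate (0.0573 to 0.0649) or AMSC replicate 2 (0.0501). That of Id3 was lost without NC replicate 1 (0.0574) or 3 (0.0510) or AMSC replicate 4 (0.0601). In AMSC against APAP, Irf8 fell by 0.81 (adjusted p = 0.0292), a call that was lost without APAP replicate 1 or 3 or any AMSC replicate (0.0521 to 0.108).

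Markers of other leukocytes were tested where they passed the filter. Of 13 monocyte genes 1 was tested, Plac8, which rose in APAP against NC (log2 fold change 1.32, SE 0.26, adjusted p = 0.0101 from limma). This call was lost with all genes above 0 (0.0728). Ly6c2 and Ccr2, which define inflammatory monocytes, had at most 0.339 and 0.129 FPKM in any library, and the list summed to 2.70 to 5.51 FPKM in NC libraries, 5.33 to 11.7 in APAP libraries and 4.53 to 6.64 in AMSC libraries. Of 9 neutrophil genes 3 were tested and all 3 (S100a8, S100a9 and Retnlg) rose in APAP against NC and in AMSC against NC, where 12.8% and 14.1% of all genes rose. S100a8 and Retnlg averaged under 1 FPKM without the APAP libraries and passed the filter only through them. The filter thus favoured genes high in the APAP group, and this count is no support for a rise there. S100a9 had 0 to 0.668 FPKM in NC libraries, 3.71 to 18.3 FPKM in APAP libraries and 1.66 to 2.95 FPKM in AMSC libraries, so that its highest level was above that of Adgre1. It had log2 fold changes of 2.95 (adjusted p = 0.00435) and 1.49 (adjusted p = 0.00296), and the neutrophil list summed to 0.173 to 1.66 FPKM in NC libraries, 7.31 to 33.5 in APAP libraries and 4.34 to 5.85 in AMSC libraries. The call of S100a8 was lost in AMSC against NC with all 9 libraries in 1 fit (0.196) and in APAP against NC with all genes above 0 (0.0976). Ly6g, which defines neutrophils, was listed at 0 in 7 of 9 libraries. The genes of dendritic cells and of T and NK cells had means under 1 FPKM and were not tested. Of 11 activation genes 1 passed the filter on low values, the inflammatory cytokine gene Il1b, which overlaps Il1bos on the other strand and had 0.182 to 1.10 FPKM in NC libraries, 1.48 to 7.96 FPKM in APAP libraries and 0.0403 to 0.264 FPKM in AMSC libraries. This gene, too, passed the filter only through its APAP values, which favoured a difference from that group. Il1b rose in APAP against NC (1.81 on the log2 scale, adjusted p = 0.0236 from limma) and fell by 2.19 in AMSC against APAP (adjusted p = 0.0367). The first call was lost without NC replicate 1 or 2 or APAP replicate 1 or 3 (0.0549 to 0.0837), and the second without APAP replicate 1 or 3 or any AMSC replicate (0.0703 to 0.128). Tnf had at most 0.136 FPKM in any library.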

How the data were processed

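The livers of 9 mice had been measured by RNA-seq, with 3 libraries in each group, and groups and replicate numbers came from the sample labels. The authors deposited FPKM values per gene with gene lengths and coordinates. The labels' processing notes name GRCm38 and mm10, and GENCODE vM21 gave the same start and end for 98.33% of its shared genes. The aligner and counter are not given in the sources used here. FPKM times gene length was a whole multiple (within 0.1) of a step for 100.0% of the values above 0, which gave the reads per gene.

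Genes were kept where the FPKM averaged 1 or more (9699 genes) and were tested on log2(FPKM + 1) with limma 3.58.1 (eBayes with trend), run in R 4.3.3. The average was over all libraries, so a gene high in only 1 group could pass through that group. Among the called genes named, this held for S100a8, Retnlg, Il1b, Irf8 and Csf2rb, through the APAP group. Only libraries of the compared groups entered a fit, and p-values were adjusted over all genes by Benjamini-Hochberg, with calls at an adjusted p of at most 0.05. The fit was tested on simulated data. P-values measure the spread between 3 libraries per group. Same-numbered NC and APAP libraries deviated together from their group means (r = 0.213, 0.160 and 0.378), so the block is given beside that comparison. The labels do not pair these mice, so the block rests on a likeness seen in the tested data and its calls are no independent support. The number of NC replicate 3 comes from its description, while its title numbers it 1 under another date.

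The markers, lists and tests were chosen with earlier results of these data known. All 10 markers are named. For the other lists the rule was up to 3 called genes per comparison with the largest changes, and genes tied to a marker, of which those of the lists nearest to macrophages are given. Spic, Tnf, Ly6g, Ly6c2 and Ccr2 fall outside this rule and were named after their values were seen. A result for 1 gene of the lists is not reported here. Settings tried in place of the main ones were a pseudocount of 0.1, no filter beyond values above 0, a minimum mean of 5 FPKM, quantile normalization, TPM, median-of-ratios rescaling, all libraries in 1 fit, no trend, voom, the replicate block, a minimum log2 fold change of 1, and leaving out each replicate.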

Additional observations from a re-analysis of the deposited data

How the results depend on the processing

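The count of markers passing the adjusted p, 0 of 10 in each comparison, was the same with a pseudocount of 0.1, all genes above 0, a mean of at least 5 FPKM (8 markers left), quantile normalization and no trend. It was also the same with median-of-ratios rescaling and a minimum log2 fold change of 1, but neither could test it. The first shifted every library equally (-0.0107 on the log2 scale), and the second can only remove calls. In APAP against NC it was 1 with all 9 libraries in 1 fit and 7 with the replicate block, where 1464 and 1545 of 9699 genes passed with higher values. The count was 0 to 5 when replicates were left out. In AMSC against APAP it was 2 with all 9 libraries in 1 fit, 1 under voom (Csf1r) and 1 with the replicate block (Adgre1). Of 9699 genes, 321, 255 and 242 passed with lower values in these settings. The count was 0 to 8 when replicates were left out. In AMSC against NC it was 2 for TPM, where 2159 of 9699 genes passed with lower values, and 0 for every replicate left out. In AMSC against APAP and AMSC against NC, the same-numbered libraries (2 pairs each) did not deviate together (r = -0.104 and -0.293, and -0.199 and -0.309), so the block there pairs libraries that share only a number. In APAP against NC, too, the labels give no pairing beyond the number.

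Direction never changed for any marker in APAP against NC or AMSC against APAP. In AMSC against NC the log2 fold change of C1qa turned to -0.055 with quantile normalization, -0.188 for TPM and -0.053 with the replicate block, and that of Marco to -0.031 for TPM. With replicates left out, it ranged from -0.202 to 0.262 for C1qa, -0.335 to 0.273 for C1qb, -0.081 to 0.421 for Marco and -0.518 to 0.0030 for Clec4f, so no direction can be given for these genes there. Adgre1 and Marco, with 42 and 31 reads in their lowest library, are the markers most limited by depth.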
